A study of Mus musculus with 2 samples.

Results

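Mir143, Mir145a and Mir145b are the 3 mouse genes of the miR-143 and miR-145 microRNAs, and they were followed here in the deposited microRNA counts of 2 heart libraries. The members were chosen by gene name in GENCODE M21, which gave 3 of the 2202 microRNA genes in the tables. Both libraries came from heart tissue of female B6CASTF1/J mice, an F1 hybrid, and held RNA of under 30 nucleotides. The age fields of both samples give 14 days, while 1 line of their descriptions follows the postnatal day with the word months, so the age rests on the fields. The labels name no treatment and no modified allele, so there was 1 group of 2 biological replicates and no condition was compared. Replicate 1 is labelled as coming from 3 females and replicate 2 as coming from 1, under a donor record that the labels of both share; whether replicate 1 pools hearts is not stated. Whole heart tissue mixes all cell types, and in such samples fewer cells of a type and less RNA per cell cannot be told apart.

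MicroRNAs are short RNAs that are cut from a hairpin and guide repression of messenger RNAs that pair with their seed, the bases near the 5′ end. miR-143 and miR-145 are made from a shared primary transcript and are best known from vascular and visceral smooth muscle and from pericytes. There, serum response factor and its coactivator myocardin turn the locus on, and the microRNAs favour the contractile state of the cell over the proliferating or synthetic state. In the heart they are therefore usually read as microRNAs of vessel walls, although the early heart tube expresses them as well.

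Mir143 and Mir145a stood side by side in a gap between 2 long noncoding RNA genes. On mm10, Mir143 (ENSMUSG00000065445.3) lay on chromosome 18, 61649196 to 61649258, and Mir145a (ENSMUSG00000065592.2) at 61647825 to 61647894, both on the minus strand with 1301 bases between them. Neither hairpin overlapped an annotated gene of M21, so both were intergenic there. Carmn, a long noncoding RNA of cardiac and smooth muscle lineages that is also known as the miR-143 host gene, ended 366 bases upstream of Mir143 on the same strand. Bvht, the Braveheart long noncoding RNA of cardiac lineage commitment, ended 352 bases downstream of Mir145a on the opposite strand. The annotated ends of Carmn and Bvht were 2152 bases apart, and both microRNAs lay within that stretch. Mir145b (ENSMUSG00000098366.1) lay at 69022199 to 69022273 on the minus strand, 7374304 bases from Mir145a, with the nearest annotated gene 70670 bases away.

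**Figure D1:**
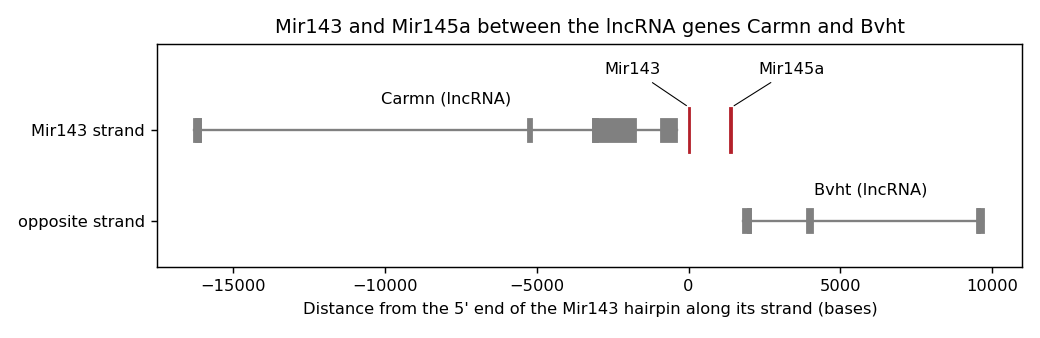
Map of the Mir143 and Mir145a locus, drawn to scale, with the distance from the 5′ end of the Mir143 hairpin on the horizontal axis (in bases, positive downstream) and the strands on separate rows. Red bars are the microRNA hairpins, grey boxes annotated exons and grey lines gene spans. Both hairpins sit in the 2152 bases between the ends of Carmn and Bvht.

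None of the 3 hairpins shared a stretch of 20 bases with any other annotated hairpin, against 1087 of the 2202 genes (49.4%) that did. The longest run of bases that members shared was 17, between the hairpins of Mir145a (70 bases) and Mir145b (75 bases), which were identical at 40 of 78 aligned columns (51.3%). Mir143, with a hairpin of 63 bases, shared no run longer than 6 bases with either. Reads that map to several places were counted for no gene in these tables, and copies outside annotated hairpins were not looked for.

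The members are set in later paragraphs beside microRNAs with known roles in vessels and smooth muscle. Mature forms of some of those are shown here because shared sequence decides how their reads can be counted. No mature sequence was matched for the 3 members, so theirs are not shown. Sequences are from RefSeq on GRCm38.p6, 5′ to 3′, with the seed (bases 2 to 8) in capitals. Of the 16 genes in the lists for the contractile and the synthetic state of smooth muscle, 13 were matched by symbol, and Mir126a and Mir497 were looked up beside them. miR-126a is the endothelial microRNA, miR-21a, miR-221 and miR-222 accompany proliferating smooth muscle, and miR-195a restrains it.
miR-126a-3p: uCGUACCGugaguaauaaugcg
miR-21a-5p: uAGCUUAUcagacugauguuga
miR-221-3p: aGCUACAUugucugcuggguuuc
miR-222-3p: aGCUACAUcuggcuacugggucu
miR-195a-5p: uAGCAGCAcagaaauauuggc
miR-497a-5p: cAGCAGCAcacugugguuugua
miR-24-3p: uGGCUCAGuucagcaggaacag
miR-26a-5p: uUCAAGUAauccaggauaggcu
Mir221 and Mir222 are clustered on chromosome X and Mir195a and Mir497 on chromosome 11, and each pair shares its seed but differs in the rest of the mature sequence. The miR-24-3p sequence is encoded identically by Mir24-1 and Mir24-2, and miR-26a-5p by Mir26a-1 and Mir26a-2, so the counts of these 4 genes can be too low by an unknown amount.

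Replicate 1 held 12701590 reads and replicate 2 held 7126319, and microRNA genes received 5237062 (41.2%) and 3026501 (42.5%) of them on their annotated strand. Levels are counts scaled to 1000000 of these reads (CPM) and are not divided by length, since reads of this size span a mature microRNA. Means are given with the SD over both libraries (n = 2), and intervals are exact 95% Clopper-Pearson intervals. Copies made by PCR cannot be told from separate molecules here, so intervals and floors cover counting error only. The cardiomyocyte microRNAs Mir208a, Mir208b and Mir499 had 872 reads or more in each library, and 335 genes reached 10 reads in both.

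Mir143 was among the microRNA genes with the most counted reads in these hearts, Mir145a was about 30 times scarcer and Mir145b was not seen. Mir143 had 152525 reads in replicate 1 and 99881 in replicate 2. These are 29124 CPM (interval 28980 to 29268) in replicate 1 and 33002 CPM (32801 to 33204) in replicate 2, with a mean of 31063 ± 2742 CPM. The intervals did not overlap and replicate 2 was higher. Mir143 took 2.91% of counted reads in replicate 1 and 3.30% in replicate 2, and ranked 9th of all genes in both libraries. Of all sequenced reads, mapped or not, it took 1.20% and 1.40%. Reads with several mapping places, 41.1% of the replicate 1 library and 39.9% of the replicate 2 library, are missing from every gene's count. The share and rank of Mir143 therefore hold among counted reads only. Genes that share sequence with others can stand too low in this order by an unknown amount.

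Mir145a had 6333 reads in replicate 1 and 2653 in replicate 2. These are 1209 CPM (1180 to 1239) in replicate 1 and 877 CPM (844 to 911) in replicate 2, with a mean of 1043 ± 235 CPM. Here replicate 1 was higher, again with intervals apart, so the 2 genes of the cluster differed in opposite directions in these libraries by more than counting error. Mir145a ranked 66th in replicate 1 and 75th in replicate 2. Mir145b had 0 reads in both, so that its level could still have reached 0.573 CPM in replicate 1 or 0.991 CPM in replicate 2. It therefore stayed below the filter of 10 reads in sum, which the other 2 members passed, and was not detectable at this depth.

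Together the 3 genes took 3.03% of counted reads in replicate 1 (3.02 to 3.05) and 3.39% in replicate 2 (3.37 to 3.41). Mir143 supplied 96.0% of these reads in replicate 1 and 97.4% in replicate 2, and Mir145a the remaining 3.99% and 2.59%. Every read of the members lay on the annotated strand. The opposite strand of Mir143 had 0 reads in both libraries, which allows up to 0.00197% of its own-strand reads in replicate 1 and 0.00300% in replicate 2. Opposite-strand reads were also 0 at Mir145a and Mir145b, and 314 of the 335 detected genes had none either, so this was the usual state of a detected gene.

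**Figure D2:**
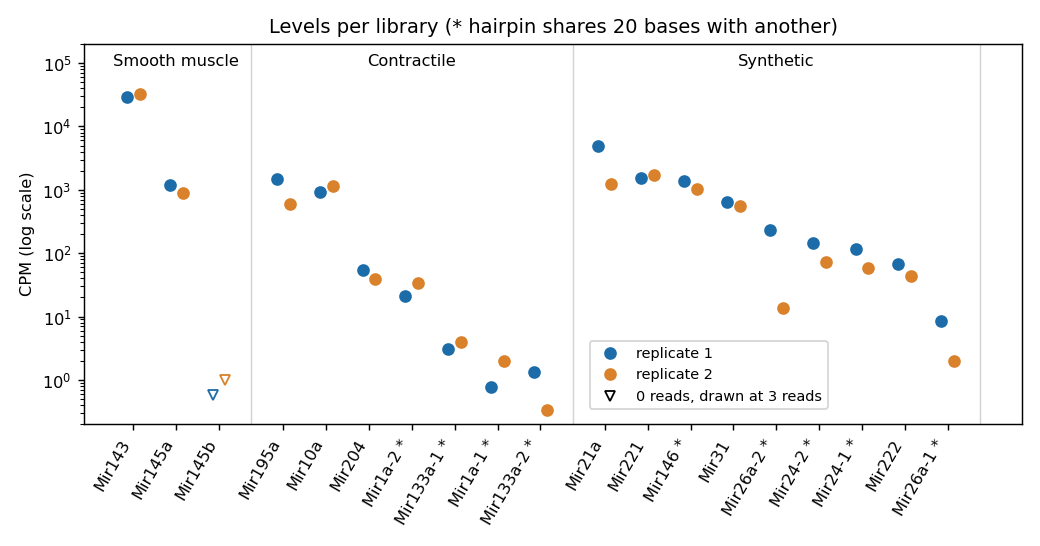
Levels per library, in CPM on a log axis, of the 3 members and of the genes listed for the contractile and the synthetic state of smooth muscle. Blue points are replicate 1, orange points replicate 2, open triangles a count of 0 drawn at 3 reads, and a star marks a hairpin that shares 20 bases with another. Mir143 (29124 and 33002 CPM) lies above every other gene shown, and Mir145b is at 0.

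Several genes stood close to the members in level. By mean CPM, Mir143 lay between Mir23a (31142 ± 6021 CPM) and Mir139 (29167 ± 8372 CPM), and these 3 did not differ beyond the SD of their levels. The pattern most like that of Mir143, by the distance of log2(CPM + 1) over both libraries, was that of Mir23a at a distance of 0.15, with 26885 CPM in replicate 1 and 35400 in replicate 2. It was followed by Mir99a (0.33), Mir139 (0.57), Mirlet7b (0.82) and Mir23b (1.004). With 2 libraries this measures mainly the level, and Mir23a and Mir23b each share 20 bases with another hairpin.

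Mir145a lay between Mir195a (1056 ± 638 CPM) and Mir20a (1039 ± 298 CPM), and these 3 did not differ beyond their SDs either. Its nearest pattern was that of Mir328 at a distance of 0.17, with 1088 CPM in replicate 1 and 923 in replicate 2. Mir106b (0.26), Mir146 (0.27), Mir542 (0.34) and Mir92-1 (0.34) came next. All but Mir542 were higher in replicate 1 than in replicate 2 by CPM, as Mir145a was. Of these, Mir146 and Mir92-1 each share 20 bases with another hairpin.

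The 2 libraries were then compared gene by gene, with differences given as log2 of replicate 1 over replicate 2 after TMM scaling. An exact two-sided binomial test with Benjamini-Hochberg adjustment called 238 of 430 tested genes (55.3%). Of the tested genes, 27.9% were called higher in replicate 1 and 27.4% lower, so a call is the common case here. The test compares these 2 libraries for counting error and says nothing of a condition. Mir143 was lower in replicate 1, with a log2 difference of -0.31 (counting interval -0.33 to -0.30, 1.24-fold) and a log10 of the adjusted p of -613. Mir145a was higher in replicate 1, with a log2 difference of 0.33 (0.26 to 0.40, 1.26-fold) and an adjusted p of 5.77e-23 by the exact binomial test. Both directions held with total counts, DESeq2 size factors and unstranded counts.

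These differences were below the median over all other tested genes, but ordinary among genes of like level. Of the other 429 tested genes, 143 had a smaller absolute log2 difference than Mir143 and 155 a smaller one than Mir145a, and the median over them was 0.53. Among the 20 tested genes nearest in level to Mir143, from 6273 to 119239 CPM, 11 had a smaller difference, the median was 0.28 and all 20 were called. Among the 20 nearest to Mir145a, from 831 to 1292 CPM, 10 had a smaller difference, the median was 0.32 and 19 were called. When a spread between libraries was allowed for, neither member was called. At a biological coefficient of variation of 0.1, edgeR's exact test gave adjusted p-values of 0.26 for Mir143 and 0.24 for Mir145a and called 28.6% of genes. At the value of 0.424 estimated from these libraries it called 4 genes (0.93%), 24 genes had an unadjusted p under 0.05, and both members had an adjusted p of 1. That value came from the same libraries without regard to replicate, so it takes in the very difference under test. Few calls could be made with it, and no conclusion is drawn from a missing call.

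**Figure D3:**
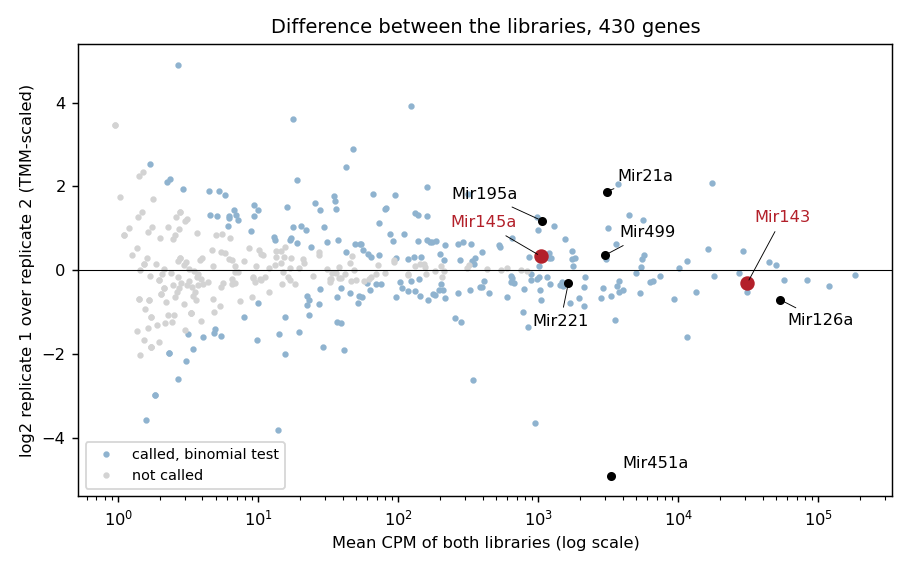
Log2 difference between the libraries (replicate 1 over replicate 2, TMM-scaled) against the mean CPM on a log axis for the 430 tested genes, light blue where the binomial test called them and grey where it did not, with genes named in the text in black. Mir143 at -0.31 and Mir145a at 0.33 (red) lie on opposite sides of 0 and near the middle of the cloud, while Mir451a lies at -4.91.

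The ratio of Mir143 to Mir145a within a library needs no scaling for depth. Mir143 had 24.1 reads for each read of Mir145a in replicate 1 (interval 23.5 to 24.7) and 37.6 in replicate 2 (36.2 to 39.1), a mean of 30.9 ± 9.59. The ratio was 1.56-fold lower in replicate 1 (log2 change -0.64, interval -0.71 to -0.58), and Fisher's exact test, two-sided, on the 4 read counts gave p = 8.42e-85. Put the other way, 100 reads of Mir143 went with 4.15 reads of Mir145a in replicate 1 and 2.66 in replicate 2. How far a ratio of reads follows the ratio of molecules was not tested.

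Other microRNA genes that are neighbours on a strand show what such ratios look like. There were 85 pairs at most 10000 bases apart with at least 10 reads of both genes in both libraries. Fisher's exact test called a change of the ratio between libraries in 53 of them (62.4%) after adjustment over the pairs. The median ratio of the higher to the lower gene in the other 84 pairs was 6.68, and Mir143 with Mir145a stood 17th in order of the ratio, counted from the largest. Where pairs with a hairpin that shares 20 bases were left out, it stood 6th of 54. The change between libraries of 0.64 on the log2 scale was close to the median of 0.70 over the other pairs, 40 of which changed less. Mir143, the higher gene, is also the first on the strand from the 5′ side, as the higher gene was in 50 of the 85 pairs.

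The widest ratios belonged to Mir214 over Mir199a-2 (519 in replicate 1 and 211 in replicate 2), Mirlet7d over Mirlet7f-1 (268 and 285) and Mir541 over Mir377 (128 and 388). Mir542 over Mir450-2 (94.1 and 154) and Mir30d over Mir30b (104 and 81.2) came next. Of these 5 pairs, only the pairs of Mir541 and of Mir30d were free of a hairpin sharing 20 bases. At the other end, Mir494 over Mir679, Mir195a over Mir497, Mir379 over Mir411, Mirlet7e over Mir99b and Mir673 over Mir493 were close to equal on average over the libraries. The order of the genes turned round between libraries in the pairs of Mir195a and Mirlet7e, and also of Mir494. Mir195a had 1.67 reads per read of Mir497 in replicate 1 and 0.691 in replicate 2, and Mirlet7e had 2.09 per read of Mir99b in replicate 1 and 0.595 in replicate 2. The ratio of Mir143 to Mir145a changed less than either of them.

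Next in the order, at 18th, stood Mir221 and Mir222, a pair of the synthetic list. Mir221 had 8062 and 5267 reads in replicates 1 and 2, and Mir222, its clustered partner with the same seed, had 358 and 134. Their ratio was 22.5 in replicate 1 and 39.3 in replicate 2. As in the Mir143 cluster, the abundant gene was lower in replicate 1 (Mir221, log2 -0.31) and the scarce gene higher (Mir222, log2 0.49). Both clusters therefore had a lower ratio in replicate 1, as did 48 of the 85 pairs, and this likeness was noticed after the values were seen.

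**Figure D4:**
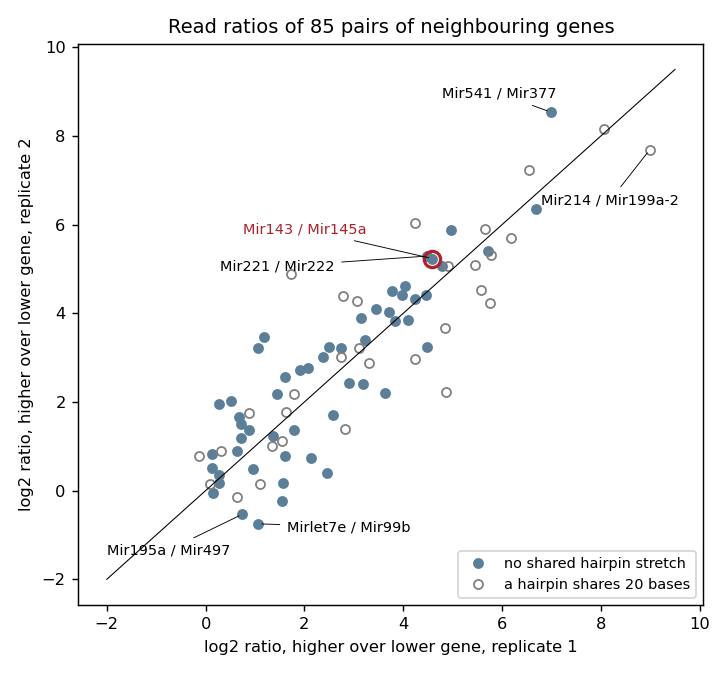
Log2 ratio of reads of the higher to the lower gene in 85 pairs of neighbouring microRNA genes, replicate 1 on the horizontal axis and replicate 2 on the vertical axis, with the line of equality. Filled points have no hairpin that shares 20 bases with another and open points have at least 1. Mir143 over Mir145a (red ring, 4.59 and 5.23) and Mir221 over Mir222 (4.49 and 5.29) lie almost on each other, above the line.

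MicroRNAs linked to the contractile state of smooth muscle were scarce in the counts beside Mir143. All 7 listed genes (Mir1a-1, Mir1a-2, Mir133a-1, Mir133a-2, Mir10a, Mir195a and Mir204) together had 2504 CPM in replicate 1 and 1837 in replicate 2. Of 6 tested, 1 was higher in replicate 1, 2 were lower and 3 were not called, so that 3 of 6 were called in either direction, near the 55.3% over all tested genes. Their median log2 difference was -0.50, against -0.05 over all tested genes. Of the 7 listed, 4 share 20 bases with another hairpin. Of the 3 tested genes that do not, 1 was higher (Mir195a), 1 was lower (Mir10a) and Mir204 was not called (log2 0.32). Mir195a, a member of the miR-15 family that restrains smooth muscle proliferation, was higher, with 1507 CPM in replicate 1 and 605 in replicate 2 (log2 1.18). Mir10a, which lies in a Hox cluster and promotes smooth muscle differentiation, was lower, with 916 CPM in replicate 1 and 1153 in replicate 2 (log2 -0.47). Mir204 had 54.6 CPM in replicate 1 and 39.6 in replicate 2 and was called higher with total counts and with DESeq2 size factors only. The other 4 genes encode miR-1 and miR-133, the striated muscle microRNAs, share 20 bases with other hairpins and had at most 110 reads in a library. Reads that map to several places were not counted for these 4 genes. Their counts can be too low by an unknown amount and do not show that miR-1 or miR-133 was scarce. Mir1a-2 was called lower (110 reads in replicate 1 and 101 in replicate 2, log2 -0.80).

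MicroRNAs linked to the synthetic state had 9035 CPM in replicate 1 and 4727 in replicate 2 in sum. Of 9 tested, 7 were higher in replicate 1, 1 was lower and 1 was not called, against 27.9% higher and 27.4% lower over all tested genes. Their median log2 difference was 0.85, against -0.05 over all tested genes. Of these 9, 5 share 20 bases with another hairpin, and of the 4 that do not, 2 were higher and 1 was lower. Mir21a, which promotes growth of smooth muscle cells and fibroblasts, had 4926 CPM in replicate 1 and 1225 in replicate 2 (log2 1.87). Mir221, which lowers the cell cycle inhibitor p27 together with Mir222, had 1539 CPM in replicate 1 and 1740 in replicate 2 and was the gene called lower. Mir146 (log2 0.30), Mir24-1 (0.86), Mir24-2 (0.85), Mir26a-1 (1.88), Mir26a-2 (3.91) and Mir222 were the others called higher. Mir31 (634 CPM in replicate 1 and 558 in replicate 2) was not called and was called higher with total counts. At the estimated biological coefficient of variation, edgeR's exact test called none of the contractile list and only Mir26a-2 of the synthetic list (adjusted p = 0.0238). Reads of miR-26a-5p that map to both Mir26a genes were not counted. The count of Mir26a-2 (1211 reads in replicate 1 and 42 in replicate 2) therefore does not measure miR-26a as a whole. The same holds for the Mir24 genes and miR-24-3p.

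Summed levels of the other cell type lists also differed between the libraries, and their part in the differences of Mir143 and Mir145a was not tested. The calls named next are by the exact binomial test, which called 27.9% of all tested genes higher in replicate 1 and 27.4% lower. At the estimated biological coefficient of variation, edgeR's exact test called Mir451a (adjusted p = 0.00104) and no other gene of these 6 lists. The endothelial list, with Mir126a and Mir126b, summed to 42912 CPM in replicate 1 and 63991 in replicate 2. Mir126a supplied nearly all of it and was called lower in replicate 1 (log2 -0.71). It was not called with unstranded counts, which left the list a mean of only 5.70 CPM. That column held fewer gene reads in sum than the own-strand column (3881210 against 5237062 in replicate 1). With so few reads of the list left, that setting does not check the difference of Mir126a.

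The erythroid list, 5 genes in the tables with Mir451b at 0, summed to 1016 CPM in replicate 1 and 7394 in replicate 2. Mir451a (log2 -4.91) and Mir144 (-2.62) were lower in replicate 1, while Mir486 (0.55) and Mir3107 (0.71) were higher. The fibroblast list of 9 genes, Mir199a-1 at 0, summed to 8080 CPM in replicate 1 and 3474 in replicate 2, of which Mir21a supplied 4926 and 1225 CPM. Of its 8 tested genes, 3 were higher (Mir21a, Mir29a and Mir214), 3 were lower (Mir29b-2, Mir29c and Mir199b) and 2 were not called, with a median log2 difference of -0.01. The leukocyte list of 5 genes in the tables summed to 3855 CPM in replicate 1 and 4154 in replicate 2. Only Mir155, its leading gene, was lower in replicate 1 (1591 CPM, against 2619 in replicate 2), and the other 4 were called higher.

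The cardiomyocyte list of 9 genes summed to 5195 CPM in replicate 1 and 3456 in replicate 2, with Mir499 and Mir208a called higher, Mir1a-2 lower and the 5 other tested genes not called. In this list and in the fibroblast list, 6 of 9 genes share 20 bases with another hairpin, and reads that map to several places were not counted for them. The cardiomyocyte sum is therefore nearly all from Mir499, Mir208a and Mir208b. The epithelial list of 10 genes summed to 734 CPM in replicate 1 and 446 in replicate 2. Of its 9 tested genes, 7 were higher and 1 was lower, against 27.9% higher and 27.4% lower over all tested genes. Some genes stand in more than 1 list, such as Mir21a (fibroblast and synthetic) and Mir146 (leukocyte and synthetic). The sum of the 3 smooth muscle genes, at 30333 CPM in replicate 1 and 33879 in replicate 2, had a smaller spread relative to its mean than all of these sums but the leukocyte one. Mir143 alone supplied 96.0% of that sum in replicate 1 and 97.4% in replicate 2, while Mir145a differed in the other direction. The spread is thus that of Mir143, and 11 of the 20 tested genes nearest to it in level differed less.

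Set against single genes, Mir143 kept its order beside all leading genes of these lists in both libraries. It was scarcer than Mir126a, with 0.679 reads per read of Mir126a in replicate 1 (0.674 to 0.683) and 0.516 in replicate 2 (0.512 to 0.520). It exceeded Mir499, the cardiomyocyte microRNA of the myosin gene Myh7b, by 8.36-fold in replicate 1 and 13.3-fold in replicate 2. Mir143 exceeded Mir155, a leukocyte microRNA, by 18.3-fold in replicate 1 and 12.6-fold in replicate 2, and Mir21a by 5.91-fold and 27.0-fold. Beside Mir200c, an epithelial microRNA, the ratio was 76.9 in replicate 1 and 111 in replicate 2. Beside Mir451a of the erythroid lineage it was 125 in replicate 1 and 5.16 in replicate 2, a wider shift than beside the other 6 leading genes.

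Mir145a had its steadiest ratio with Mir499, at 0.347 reads per read of Mir499 in replicate 1 (0.337 to 0.357) and 0.353 in replicate 2 (0.337 to 0.369), where the intervals overlapped. Its ratio to Mir200c was 3.19 in replicate 1 (3.04 to 3.36) and 2.95 in replicate 2 (2.74 to 3.19), which overlapped too. Its ratio to Mir126a was 0.0282 in replicate 1 and 0.0137 in replicate 2, and that to Mir155 was 0.760 and 0.335. The order of Mir145a beside Mir195a turned round, at 0.802 in replicate 1 and 1.45 in replicate 2, and so did that beside Mir451a, at 5.18 and 0.137.

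**Figure D5:**
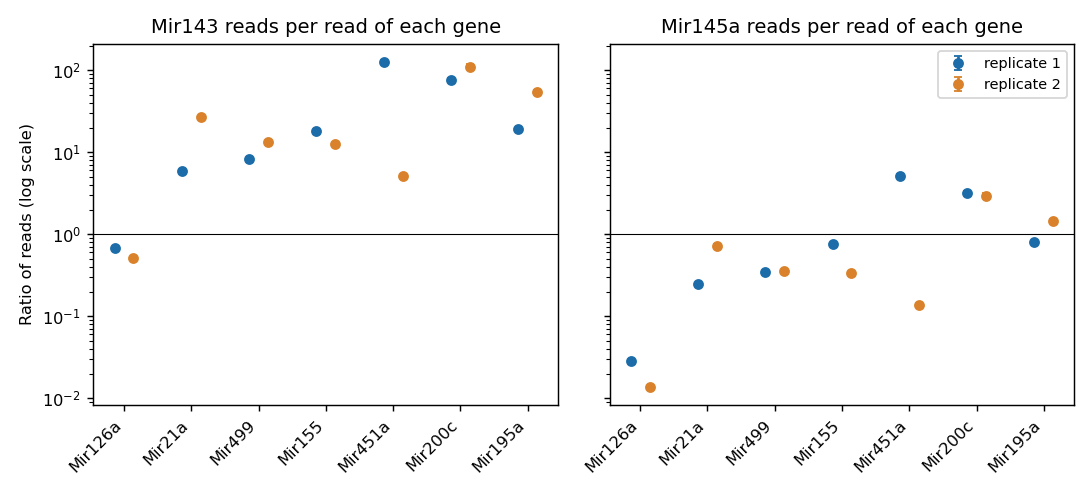
Reads of Mir143 (left) and Mir145a (right) per read of the leading gene of 7 lists, on a log axis, with replicate 1 in blue and replicate 2 in orange. Bars are exact 95% intervals of the counts, mostly smaller than the points, and the line marks equality. Mir143 lies below 1 only beside Mir126a (0.679 and 0.516), and Mir145a beside Mir499 is nearly level (0.347 and 0.353).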

How the data were processed

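Small RNA of 2 heart libraries was sequenced. The authors deposited whole-number read counts per microRNA gene, not normalized, made on mm10 with GENCODE M21 per the readme deposited with them. No trimming, alignment or counting tool is named in these sources. Of the 3 columns of counts, the own-strand column was used, as the values show it. The 4 summary lines, which belong to no gene and were left out of all totals and tests, held 13.4% (replicate 1) and 13.3% (replicate 2) unmapped reads, 41.1% and 39.9% reads mapped to several places, 4.33% and 4.30% outside microRNA genes and 0 ambiguous reads.

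CPM, log2 differences with 0.5 reads added, exact binomial and Fisher tests, adjustment over all 430 genes with at least 10 reads in sum and, for ratios, over 85 pairs, were computed with Python 3.11.15, numpy 2.4.6, pandas 2.3.3 and scipy 1.17.1, and drawn with matplotlib 3.10.9. A call is an adjusted p of at most 0.05. TMM factors, the dispersion (intercept alone) and edgeR's exact test used edgeR 4.0.16 in R 4.3.3, and DESeq2 1.42.0 gave other size factors. The level that 0 reads allow was set at 3 reads. The binomial and Fisher tests were tried on simulated counts with counting error alone. Such counts cannot show how the tests behave where libraries also differ by a biological spread. With 2 single libraries no quasi-likelihood fit could be made. The labels call the libraries biological replicates, and p-values compare these libraries, not conditions.

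Members, lists and alternatives were chosen with earlier results of these data known. Named were the 3 members, the 5 genes nearest in pattern to Mir143 and to Mir145a, their neighbours in rank, the tested genes of the contractile and synthetic lists, the 5 pairs at either end of the order of ratios and the leading gene of each other list. Mir221 with Mir222, genes not tested and other genes of the cell type lists were named after their values were seen. Genes that share a seed with the members were not analysed here.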

Additional observations from a re-analysis of the deposited data

How the results depend on the processing

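The direction of both differences between libraries held under all 8 alternatives run. Of these, only total counts, DESeq2 size factors and unstranded counts change the scaling. The other settings change the filter, the test or a small pseudocount, and could hardly have turned a direction. The ratio of Mir143 to Mir145a and its change held under all of their own settings. Unstranded reads of both genes equal their own-strand reads, so that setting only repeats the ratio. Neither member was called with edgeR's exact test, whether the biological coefficient of variation was 0.1 (log2 -0.31 for Mir143 and 0.33 for Mir145a) or the estimated one (-0.31 and 0.33), and these settings called 123 genes (67 higher, 56 lower in replicate 1) and 4 genes (1 higher, 3 lower). Total counts moved all log2 differences by 0.13 and called 144 genes higher and 96 lower. The share of called genes, not of tested genes, that were higher in replicate 1 grew by 9.58 percentage points.

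Levels scale with the denominator. Mir143 stood at 42537 CPM with unstranded counts, 13012 per 1000000 of all reads and 38067 without Mir378a, the most abundant gene. For Mir145a these were 1424, 435 and 1279. Leaving out a replicate gave 29124 to 33002 CPM for Mir143, 877 to 1209 for Mir145a, 0 for Mir145b, a ratio of 24.1 to 37.6 and ranks of 9 for Mir143 and 66 to 75 for Mir145a. Mir143 ranked 7th with unstranded counts and 6th without genes that share 20 bases, and Mir145a 56th in that second setting. Among pairs, 35 of 54 were called without shared hairpins. The number with a larger ratio than Mir143 and Mir145a was 8 with at least 100 reads and 5 without shared hairpins, against 16, fewer pairs being tested in both. In the contractile list 2 genes were higher with total counts and 1 was lower with unstranded counts, where Mir1a-2 had no reads. No paired analysis was possible because there is a single group. Depth limits Mir145b, whose 0 reads bound its level only at the floor.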
